A study of Rattus norvegicus with 8 samples.

Results

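Interferon regulatory and response genes are represented here by 9 genes: the interferon regulatory factors Irf1, Irf3, Irf7, Irf8 and Irf9, the signal transducer Stat2, and the response genes Mx1, Mx2 and Isg15. They were chosen by symbol, as the 10 array probes other than controls whose gene name in the files is one of these 9. The array holds 30367 probes other than controls. Irf1 has 2 probes and each other gene has 1. Male Wistar rats aged 12 weeks were either exposed to water avoidance stress (n = 4) or served as controls (n = 4). Total RNA from lumbar spinal cord (L6S1) was measured with 1 Agilent 1-colour array for each animal. Each stressed rat was kept on a small platform above water for 1 h per session on 10 days, and the tissue was taken 24 h after the last session. The cord was flushed out of the spine with saline and the meninges were removed before dissection, so the samples are whole tissue of all its cell types. The question was whether repeated psychological stress changes these genes in the spinal cord.

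Cells that sense viral nucleic acid, or other danger signals, switch on IRF3 and IRF7, which turn on the genes of type I interferon. Secreted interferon binds its receptor and acts through the kinases JAK1 and TYK2 on signal transducers, among them STAT2, which joins IRF9 in a complex that enters the nucleus. This complex binds a short element in the promoters of response genes such as Mx1, Mx2 and Isg15, and IRF7 is itself a response gene. IRF1 is a mediator of the answer to interferon gamma, and IRF8 is a factor of macrophages and of microglia, the resident macrophages of the cord.

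The difference between the groups rests on single probes of 60 bases. The probes of the 4 genes to which the text returns most often are shown with the position the files give on the rn4 rat assembly. Each lies in the RefSeq transcript of its gene, and each can be read without a stop codon in at least 1 frame. Which exon holds them was not analysed here. They are printed 5′ to 3′ in lower case throughout, as no stretch within them is singled out.
Irf3, chr1:95474896-95474955, plus strand, from base 1262 of the transcript: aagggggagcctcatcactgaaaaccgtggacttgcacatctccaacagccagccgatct
Irf7, chr1:201456889-201456948, minus strand, from base 1699 of the transcript: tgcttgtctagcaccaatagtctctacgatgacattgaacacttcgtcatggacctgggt
Irf9, chr15:33744491-33744550, plus strand, from base 1131 of the transcript: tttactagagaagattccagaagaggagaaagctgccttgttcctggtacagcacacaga
Isg15, chr5:173034674-173034733, minus strand, from base 408 of the transcript: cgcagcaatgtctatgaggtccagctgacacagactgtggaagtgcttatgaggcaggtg

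The other probes lie at chr10:39227520-39227579 for the bright probe of Irf1, chr19:51116671-51116730 for Irf8, chr7:1580592-1580651 for Stat2, chr11:37438580-37438639 for Mx1 and chr11:37572657-37572716 for Mx2. The dim probe of Irf1, chr10:39224461-39224695, spans 235 bases of the genome with its 60 bases, so its match to the genome is split.

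Promoters of 300 bases, from 250 before to 50 after the start of transcription, were read from RefSeq on the GRCr8 assembly for 7 of the 9 genes. None was available for Isg15 and Mx2, so of the response genes here only Mx1 was searched. The interferon-stimulated element was searched as GAAANNGAAA on both strands. It was found in 1312 (3.92%) of all 33469 promoters, in 24 (61.5%) of the 39 promoters of a list of other type I interferon response genes, and in 1 of the 7 promoters of the genes here. That 1 was Irf7. Mx1 had no match, and the rest of the 7 were Irf1, Irf3, Irf8, Irf9 and Stat2. The Irf7 promoter is shown with the match in capitals, which are the reverse complement of the element and begin 69 bases before the start. Ifi44 and Rsad2, a pair of response genes met again below, are set beside it.
Irf7, chr1:205800043-205800132, minus strand: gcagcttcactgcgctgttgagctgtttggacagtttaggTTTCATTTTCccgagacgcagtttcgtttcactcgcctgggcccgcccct
Ifi44, chr2:243303841-243303906, minus strand: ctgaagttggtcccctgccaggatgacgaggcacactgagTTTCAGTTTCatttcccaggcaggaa
Rsad2, chr6:48788218-48788307, minus strand: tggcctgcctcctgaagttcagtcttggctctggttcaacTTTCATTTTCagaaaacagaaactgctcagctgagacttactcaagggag
The gamma-activated element, searched as TTCNNNGAA, which reads the same on both strands, was found in 2970 (8.87%) of all promoters and in 3 of the 7, those of Irf1, Irf8 and Irf9. A match is a match of letters only.

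All 10 probes were well above background on all 8 arrays, and none was saturated on any. Each of the 9 genes was therefore measured in each rat. Per array, 23005 to 24066 probes were detected, and the 75th percentile of the signal before scaling ran from 1840.5 to 2334.6 in control and from 1751.2 to 1944.6 in stressed rats. Values are given as the log2 signal minus the 75th percentile of the array, so 0 stands for a signal at that percentile. As probes differ in how well they bind, no level of one gene is set against that of another. With limma across the 23678 tested probes, 0 of the 9 genes were called at a false discovery rate (FDR) below 0.1. At this threshold 3.74% of all tested probes were called, and 2.77% were called as higher in stressed rats. At an unadjusted p below 0.05, 1 of the 9 genes passed, against 20.3% of all tested probes. In 6 genes the mean was higher in stressed rats and in 3 it was lower, with a median log2 difference of 0.07 over the 9 genes and of 0.06 over all tested probes. Other scalings moved that median of all tested probes to between -0.05 and 0.07. The difference was smaller than the range between the 4 control rats in 8 genes and larger in Irf3. In whole tissue, fewer cells of a type and less RNA per cell cannot be told apart. The 8 arrays shared 1 slide, on which row 1 held the stressed and row 2 the control group, so the row and the group cannot be told apart either.

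**Figure D1:**
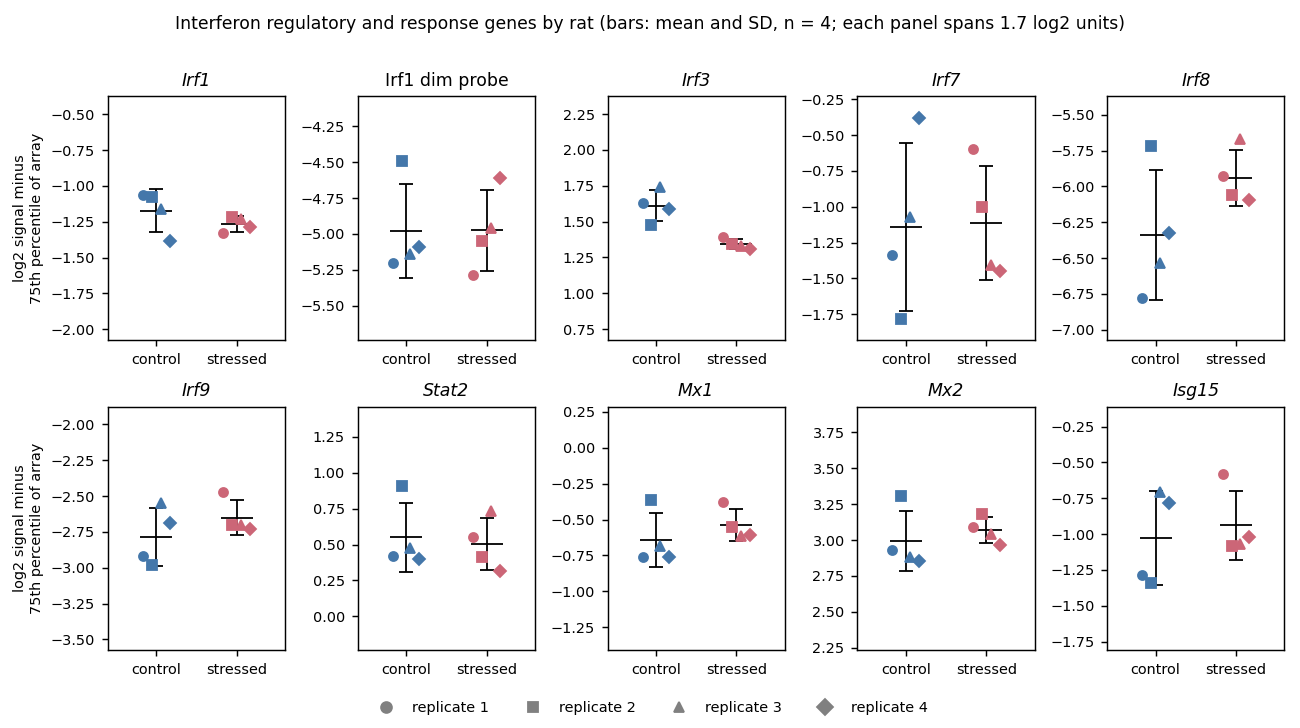
Log2 signal minus the 75th percentile of the array for the 10 probes, with 1 symbol per rat, replicates 1 to 4 of each group by shape, and bars for the mean and SD (n = 4). Irf3 is the gene whose groups do not overlap, Irf7 has the widest range, and control replicate 2 is the highest rat for Stat2, Mx1 and Mx2.

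Irf3, the constitutive factor that turns on the first interferon, was the gene nearest to a call. Its log2 signal in the control rats was 1.63, 1.48, 1.74 and 1.59, and in the stressed rats it was 1.39, 1.34, 1.33 and 1.31. The highest stressed rat lay below the lowest control rat, by a gap of 0.09 between the nearest pair. At 5.44% of all tested probes the stressed rats lay below the control rats without overlap. Control rats averaged 1.61 ± 0.11 (SD, n = 4) and stressed rats 1.34 ± 0.04 (SD, n = 4). The log2 difference was -0.27 with an SE of 0.08 and a 95% interval from -0.44 to -0.09, a ratio of 0.83 (limma, unadjusted p = 0.00769, adjusted p = 0.131). An exact permutation test over the 70 choices of 4 of the 8 arrays gave p = 0.0286, the smallest p it can give. The processed signal was between 5127 and 7722 in control rats and between 4597 and 4850 in stressed rats before scaling. The difference was negative in each of the 20 fits tried, between -0.38 and -0.16. A change of filter or of variance estimate, or a replicate block, leaves the difference itself at -0.27, so such fits say nothing on its direction. Irf3 was called with no filter on dim probes (limma, adjusted p = 0.0998), where 9.92% of all tested probes were called. It was also called with a variance trend and robust estimation (limma, adjusted p = 0.0736), where 5.47% were. With the 5′ minus 3′ difference of the arrays, described below, as a covariate the log2 difference of Irf3 was -0.16 (limma, adjusted p = 0.236).

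Irf7, the inducible factor that amplifies the interferon answer, was the gene that varied most from rat to rat. Its log2 signal was -1.34, -1.78, -1.07 and -0.38 in the control rats and -0.60, -1.005, -1.40 and -1.45 in the stressed rats. Both groups ran from low to high, and the lowest and the highest rat were both control rats. The highest rat was 2.64-fold above the lowest, and the SD over the 8 rats, 0.46, was larger than at 83.4% of all tested probes. The log2 difference was 0.03 with a 95% interval from -0.70 to 0.75 (limma, adjusted p = 0.967), which runs from a ratio of 0.62 to a ratio of 1.69. Group differences of either direction within these bounds are compatible with the values of these 8 rats, so a change of Irf7 was neither shown nor excluded.

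Irf9 and Stat2 encode members of the interferon-activated complex. Irf9 lay at -2.92, -2.98, -2.55 and -2.69 in the control rats and at -2.47, -2.70, -2.70 and -2.73 in the stressed rats. The groups overlapped, with control replicates 1 and 2 lowest and stressed replicate 1 highest. The log2 difference of Irf9 was 0.13 with a 95% interval from -0.14 to 0.40 (limma, adjusted p = 0.533). Stat2 lay at 0.42, 0.91, 0.47 and 0.40 in the control rats and at 0.55, 0.41, 0.73 and 0.31 in the stressed rats. Its highest rat was control replicate 2, and the other 3 control rats lay within the range of the stressed rats. The log2 difference of Stat2 was -0.05 with a 95% interval from -0.38 to 0.28 (limma, adjusted p = 0.864).

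Irf1 was measured by a bright and a dim probe. The bright probe gave -1.07, -1.08, -1.16 and -1.39 in the control rats and -1.33, -1.22, -1.23 and -1.28 in the stressed rats. It varied less from rat to rat than most probes did, with an SD over the 8 rats of 0.11, larger than at 16.8% of all tested probes. Its log2 difference was -0.09 with a 95% interval from -0.30 to 0.11 (limma, adjusted p = 0.564). The dim probe ranged from -5.21 to -4.49 in control rats and from -5.29 to -4.61 in stressed rats, with a difference of 0.01 and a wider interval from -0.45 to 0.46 (limma, adjusted p = 0.989). The 2 probes of Irf1 both gave overlapping groups.

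Irf8, the factor of macrophages and microglia, had the largest difference among the 9 genes on this scale, but not with quantile normalization or median scaling, where that of Irf3 was larger. Its probe was dim, with a processed signal between 21.3 and 37.9 over the 8 rats. Its log2 signal was -6.78, -5.72, -6.53 and -6.32 in the control rats and -5.93, -6.06, -5.67 and -6.10 in the stressed rats. On this scale, control replicates 1, 3 and 4 lay below all stressed rats, while control replicate 2 lay among the highest. Before scaling, control replicate 4, at 29.2, lay above stressed replicates 1, 2 and 4, at 28.7, 28.1 and 28.6. Of 6679 probes that were not tested, 32.5% were higher in all stressed rats than in all control rats, and 0.73% were lower. Among all tested probes, to which that of Irf8 belongs, the shares were 6.65% and 5.44%. The log2 difference of Irf8 was 0.40 with an SE of 0.22 and a 95% interval from -0.12 to 0.91 (limma, adjusted p = 0.341, exact permutation test p = 0.143). It was 0.19 with quantile normalization, 0.22 after normexp background correction and 0.28 with median scaling, where Irf3 had -0.27, -0.19 and -0.38. The summed level of microglia and macrophage markers overlapped between the groups. All 14 listed markers were tested, 0 were called by limma at FDR below 0.1 and 0 passed an unadjusted p below 0.05. Their summed level, in units of the 75th percentile, was between 24.2 and 29.0 in control rats and between 24.0 and 28.4 in stressed rats. Their median log2 difference was 0.0004.

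Mx1 and Mx2 encode dynamin-like GTPases that restrict viruses. Mx1 lay at -0.76, -0.36, -0.68 and -0.76 in the control rats and at -0.38, -0.55, -0.61 and -0.61 in the stressed rats. Mx2 lay at 2.93, 3.31, 2.88 and 2.85 in the control rats and at 3.09, 3.18, 3.04 and 2.96 in the stressed rats. On this scale, in both genes control replicate 2 was the highest rat and the other 3 control rats lay below all 4 stressed rats. The median tested probe followed the same order. It lay at -2.26, -1.99, -2.26 and -2.22 in the control rats and from -2.11 to -2.03 in the stressed rats. Before scaling, the signal of Mx1 ran from 1264 to 1439 in control and from 1260 to 1348 in stressed rats. That of Mx2 ran from 16344 to 18217 in control and from 14909 to 16905 in stressed rats. The log2 difference was 0.10 for Mx1 with a 95% interval from -0.15 to 0.36 (limma, adjusted p = 0.603). For Mx2 it was 0.07 with a 95% interval from -0.19 to 0.34 (limma, adjusted p = 0.726). The intervals end at ratios of 1.28 for Mx1 and 1.26 for Mx2.

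Isg15 encodes a ubiquitin-like protein that is attached to other proteins after interferon. It lay at -1.28, -1.34, -0.71 and -0.78 in the control rats and at -0.58, -1.08, -1.07 and -1.02 in the stressed rats. The control rats split into a low and a high pair, and the stressed rats lay between them except for stressed replicate 1, the highest of all. The log2 difference was 0.09 with a 95% interval from -0.34 to 0.52 (limma, adjusted p = 0.798). The highest rat was 1.69-fold above the lowest.

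**Figure D2:**
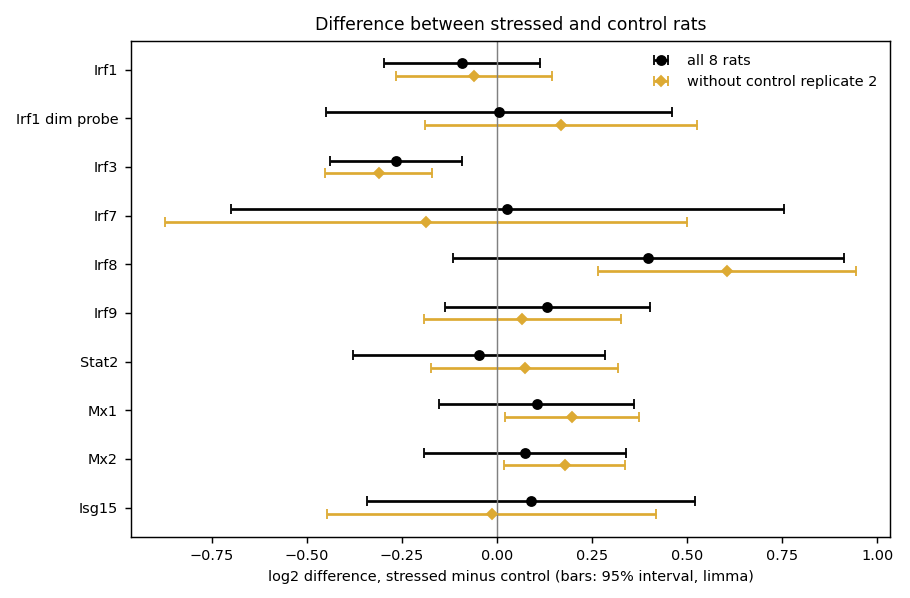
Log2 difference, stressed minus control, of each probe with its 95% interval from limma, over all 8 rats (circles) and without control replicate 2 (diamonds). With all rats the interval of Irf3 alone lies off 0, and without that rat those of Irf8, Mx1 and Mx2 lie above 0 too.

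Leaving out a single control rat changed the calls of 4 genes. Without control replicate 2, 4 of the 9 genes were called at FDR below 0.1, at a point where 42.4% of all tested probes were called. Irf3 was then lower in stressed rats by a log2 difference of -0.31 (limma, adjusted p = 0.00892), and Irf8, Mx1 and Mx2 were higher by 0.60, 0.20 and 0.18 (limma, adjusted p = 0.0191, 0.0837 and 0.0844). The same 4 genes were called when limma gave each array a weight, at which 50.6% of all tested probes were called. Without any one of the other 7 rats, 0 of the 9 genes were called and at most 72 of all tested probes were.

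Control replicate 2 also stood apart from the other control rats in the evenness of RNA coverage. For 1885 transcripts, probes lie 300 or more bases from each other, and the log2 signal nearer the 5′ end less the one nearer the 3′ end is a measure of how evenly transcripts were covered. The median of this 5′ minus 3′ difference in an array, after centring each transcript on its mean over the 8 arrays, was 0.22 in control replicate 2 and 0.17, 0.15, 0.17 and 0.09 in the stressed rats. It was -0.30, -0.30 and -0.18 in control replicates 1, 3 and 4. The 3 genes that were higher without that rat, Irf8, Mx1 and Mx2, were low in the 3 control rats with a negative value. They were high in the 5 rats with a positive one, and the median tested probe followed the same order. With this difference as a covariate, the log2 difference was -0.12 for Irf8, -0.10 for Mx1 and -0.16 for Mx2 (limma, adjusted p = 0.642, 0.564 and 0.346). Other genes moved away from 0 with the covariate, to -0.33 for Stat2, 0.36 for Irf7, 0.26 for Irf9 and 0.28 for Isg15 (limma, adjusted p = 0.175, 0.649, 0.330 and 0.543). The part of RNA coverage in the differences was not tested.

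**Figure D3:**
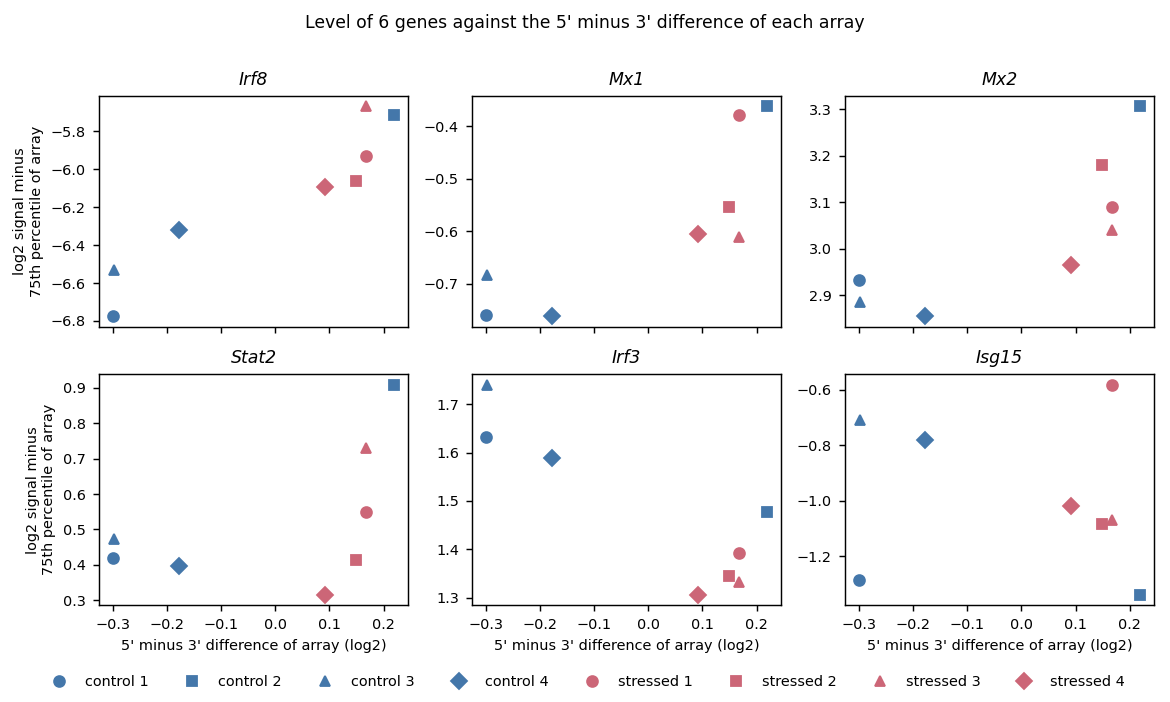
Log2 signal minus the 75th percentile of the array (vertical) against the 5′ minus 3′ difference of the array (horizontal, log2) for Irf8, Mx1, Mx2, Stat2, Irf3 and Isg15, with 1 symbol per rat. Control replicate 2, at 0.22, lies with the stressed rats for Irf8, Mx1 and Mx2, while for Irf3 the 4 stressed rats lie below it.

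Over the 8 rats the 9 genes followed different courses. For each gene the values were standardized over the rats, and the mean absolute difference to every other tested gene symbol was taken, in SD units. Isg15 and Irf9 were nearest to each other among the 9, at 0.23 over 8 rats, where the median gene lay 1.12 from Isg15. Of 13358 other gene symbols, Isg15 was the nearest of all to Irf9, and Rtp4 (0.23) and Irf9 (0.23) were the nearest to Isg15. Irf7 lay 0.54 from Isg15 and was number 41 among the genes nearest to it. RTP4 is a product of a response gene of the type I list, as is IFI44, whose gene was the second nearest to Irf9 (0.27). Rtp4 lay at -2.61, -2.52, -1.86 and -2.07 in the control rats and at -1.95, -2.38, -2.32 and -2.34 in the stressed rats. Like Isg15, it was low in control replicates 1 and 2 and high in control replicates 3 and 4 and in stressed replicate 1. The 41 tested genes of the type I list lay at a median distance of 0.92 from Isg15, with the median of all genes at 1.12, and at 1.07 from Mx2, with the median of all genes at 0.92.

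For the other 7 genes, the nearest genes were in none of the interferon lists used here. Rfx1 (0.16) and E4f1 (0.18) were nearest to Irf3, Apold1 (0.32) and Pias2 (0.33) to Irf7, and Rnf7 (0.17) and Col8a1 (0.22) to Irf1. Galc (0.12) and Katnal1 (0.12) were nearest to Irf8, Bmp1 (0.14) and Neo1 (0.15) to Stat2, Ubox5 (0.11) and Pcdhb11 (0.13) to Mx1, and Ahi1 (0.16) and Rdh8 (0.17) to Mx2. Mx1 and Mx2 lay 0.42 from each other.

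**Figure D4:**
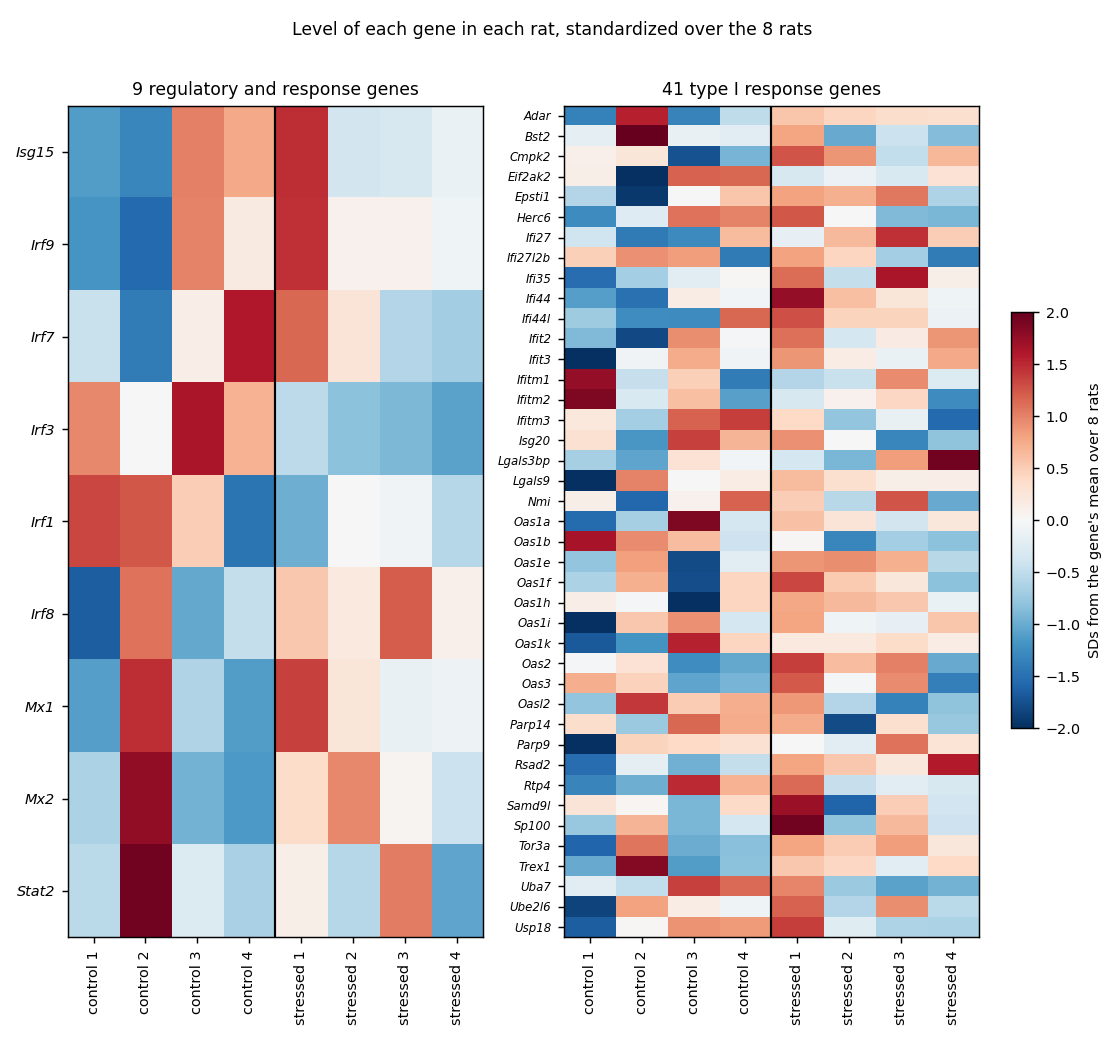
Level of the 9 genes (left) and of the 41 tested type I response genes (right) in each rat, in SDs from the gene's mean over the 8 rats, with a line between control and stressed rats. Isg15 and Irf9 share high values in control replicate 3 and stressed replicate 1, while Mx1, Mx2 and Stat2 share a high value in control replicate 2.

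Other genes of the pathway were described by role, with the probe of highest mean signal for each gene. Of 86 tested genes in 7 lists, 1 was called at FDR below 0.1, with 3.74% of all tested probes called. At an unadjusted p below 0.05, 7 had a higher and 3 a lower mean after stress, that is 10 of 86 genes, beside 20.3% of all tested probes. Over the 86 genes, the groups were fully apart at 7, with the stressed rats above in 5 and below in 2. At 6.65% of all tested probes the stressed rats were higher without overlap, and at 5.44% they were lower without overlap. The median log2 difference of the 86 genes was 0.09.

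Of the interferons themselves, 5 genes had a probe, 3 of them (Ifnb1, Ifng and Ifnk) above background on none of the 8 arrays. Ifna4 (0.16, adjusted p = 0.637) and Ifna1 (-0.30, adjusted p = 0.717) were tested with limma and not called. The interferon alpha genes are near-identical copies, so their probes can take up each other's RNA, and a second probe of Ifna1 was above background on none of the arrays.

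In the receptors and the JAK-STAT list, 7 genes were tested and Jak1, the kinase shared by the receptors of both interferon types, rose. It lay at -0.58, -0.22, -0.37 and -0.29 in the control rats and at 0.004, 0.22, -0.003 and 0.02 in the stressed rats. The lowest stressed rat was above the highest control rat, as at 6.65% of all tested probes. The log2 difference was 0.43 with an SE of 0.10 (limma, adjusted p = 0.0921, exact permutation test p = 0.0286, the smallest it can give). The call was lost without any one of the rats other than control replicate 2, and after normexp background correction, median scaling, a replicate block or the 5′ minus 3′ covariate. The median over the 7 genes was 0.17.

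**Figure D5:**
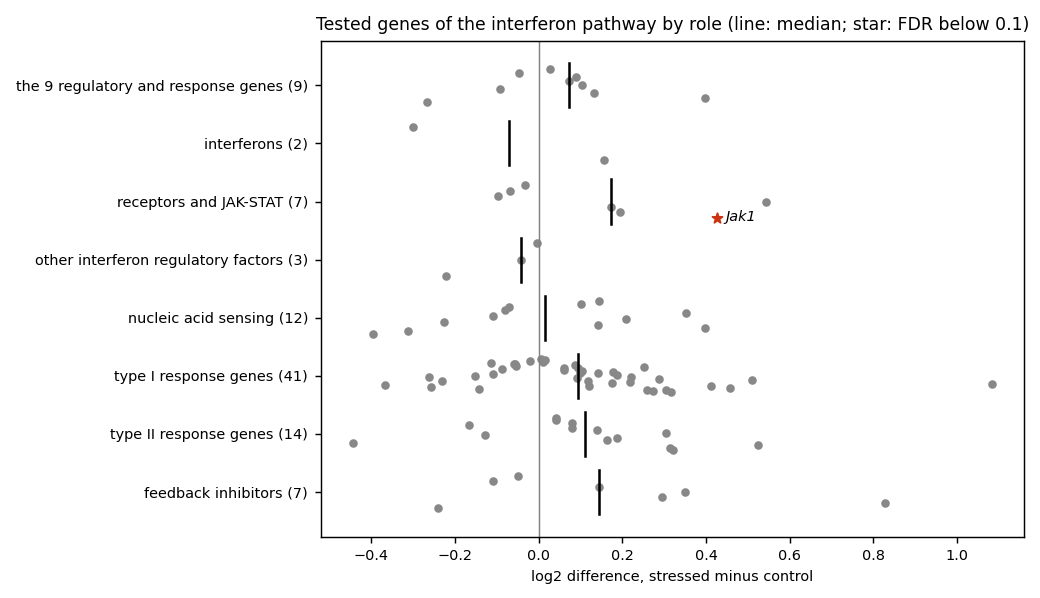
Log2 difference, stressed minus control, of each tested gene, by list with the number of tested genes in brackets. Vertical lines mark the median of a list and the star marks Jak1 (0.43), the single gene past an FDR of 0.1.

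Of 12 tested genes that sense nucleic acid or carry the signal to IRF3 and IRF7, limma called 0 at FDR below 0.1, with 1 higher and 2 lower at an unadjusted p below 0.05, which 20.3% of all tested probes passed. Ddx58, which encodes the RNA sensor RIG-I, had a log2 difference of -0.40 with an SE of 0.13 (limma, adjusted p = 0.168). Ikbke, which encodes a kinase that phosphorylates IRF3, had a log2 difference of -0.31 with an SE of 0.11 (limma, adjusted p = 0.190). Stressed rats lay between -2.74 and -2.32 for Ikbke and control rats between -2.41 and -2.08, so that the groups overlapped. Ikbke was called as lower with quantile normalization, median scaling and array weights (limma, adjusted p = 0.0672, 0.0803 and 0.0445). These settings called 5.29%, 5.35% and 50.6% of all tested probes. Ikbke was not called without control replicate 2 or with the 5′ minus 3′ covariate. The median difference of the 12 genes was 0.02.

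Of 41 tested type I response genes, limma called 0 at FDR below 0.1, with a median difference of 0.09. At an unadjusted p below 0.05, 1 of the 41 passed, beside 20.3% of all tested probes. That 1 was Rsad2, which encodes the antiviral enzyme viperin and whose promoter carries the element shown above. Rsad2 lay at -2.05, -1.77, -1.93 and -1.83 in the control rats and at -1.58, -1.63, -1.69 and -1.42 in the stressed rats. The groups did not overlap, with a log2 difference of 0.32 and an SE of 0.09 (limma, adjusted p = 0.137). Stressed rats were higher without overlap at 6.65% of all tested probes. Ifi44 came next, with a difference of 0.27 and an SE of 0.12 (limma, adjusted p = 0.258) and overlapping groups. Stressed replicate 1 was the highest of the 8 rats at 14 of the 41 genes and control replicate 1 the lowest at 14. The genes of the Oas1 family are close copies and their probes may share RNA.

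Of 14 tested type II response genes limma called 0 at FDR below 0.1, and 1 passed an unadjusted p below 0.05, beside 20.3% of all tested probes. Ifi47, which encodes a GTPase induced by interferon gamma, had a log2 difference of 0.32 with an SE of 0.10 (limma, adjusted p = 0.142), with all stressed rats above all control rats. Psmb8, which encodes a subunit of the immunoproteasome, had a difference of 0.31 with an SE of 0.15 (limma, adjusted p = 0.273) and overlapping groups. The median of this list was 0.11. Of 7 feedback inhibitors limma called 0, with 2 higher and 1 lower at an unadjusted p below 0.05 (20.3% of all tested probes). Pias4, which encodes an inhibitor of STAT proteins, lay at 0.26, 0.33, 0.25 and 0.12 in the control rats and at 0.005, 0.05, 0.05 and -0.10 in the stressed rats. Its difference was -0.24 with an SE of 0.07 (limma, adjusted p = 0.152). The stressed rats lay lower without overlap, as at 5.44% of all tested probes. Pias4 was called as lower with quantile normalization, median scaling, array weights and the 5′ minus 3′ covariate, and without control replicate 2 (limma, adjusted p = 0.0997, 0.0727, 0.0219, 0.0981 and 0.0489). In that order, these settings called 5.29%, 5.35%, 50.6%, 10.1% and 42.4% of all tested probes. Ptpn11, which encodes the phosphatase SHP2, had a difference of 0.83 with an SE of 0.29 (limma, adjusted p = 0.189), with control replicate 2 at -2.07 among the stressed rats and the other 3 control rats between -3.40 and -3.19. Ddx58, Rsad2, Ifi47, Psmb8 and Ptpn11 were called, in the directions given, with array weights and without control replicate 2. These settings called 50.6% and 42.4% of all tested probes. Of the 3 tested other interferon regulatory factors limma called 0 and 0 passed an unadjusted p below 0.05, with Irf5 at a log2 difference of -0.04 (adjusted p = 0.760).

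The makeup of the tissue was checked with marker lists. Of the cells that define spinal cord, 7 of 8 listed neuron markers, 6 of 6 astrocyte markers and 6 of 6 oligodendrocyte markers were detected and tested. Of 9 listed lymphocyte markers 3 were tested, with 0 called by limma and 0 past an unadjusted p below 0.05, and 5 were above background on no array (Cd2, Cd3e, Cd79b, Cd8a and Ms4a1). The 6 tested neutrophil markers gave 0 calls by limma and 0 passed an unadjusted p below 0.05, and their summed level was between 0.14 and 0.20 in both groups. The 7 markers of meninges and fibroblasts all had a lower mean in stressed rats, with log2 differences from -0.95 to -0.28 and a median of -0.38. They gave 0 calls by limma and 0 passed an unadjusted p below 0.05, with a summed level between 2.15 and 7.80 in control rats and between 2.01 and 5.73 in stressed rats. Of the 9 endothelial markers Pecam1 was called as higher in stressed rats (0.40, adjusted p = 0.0927), and of the 6 oligodendrocyte markers Mog was (0.90, adjusted p = 0.0721). The summed oligodendrocyte level was between 226.7 and 333.3 in control rats and between 247.2 and 341.6 in stressed rats. The 6 tested astrocyte markers and the 7 tested neuron markers gave 0 calls by limma, and at an unadjusted p below 0.05, 1 astrocyte marker was higher, 1 neuron marker was higher and 1 was lower. The 5 tested red blood cell markers gave 0 calls by limma and 0 passed an unadjusted p below 0.05. The part of tissue makeup in the values above was not tested.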

How the data were processed

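RNA of 8 rats, 4 stressed and 4 control by the labels, was measured on 1 array each, and p-values measure the spread between these arrays. Per the file headers, the deposited intensity values are processed signals of Agilent Feature Extraction 10.7.3.1, background-subtracted and detrended by that software, on probes placed on rn4. The table of values that the authors deposited holds the same intensity rounded, and no normalization between arrays was found. The paper names dChip for the authors' analysis, and the normalization there is not given in the sources used here.

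The 4259 control spots were left out of 62976. The log2 signal of each spot that was not marked as an outlier was scaled by the 75th percentile of its array, and the mean was taken for probes with several spots. Tested probes had 0.5 or more of their spots marked as well above background in 4 or more arrays, in either group. Groups were compared with limma 3.58.1 (lmFit and then eBayes, two-sided; R 4.3.3, package data.table, version 1.17.8), with Benjamini-Hochberg adjustment over 23678 probes a threshold of 0.1, and 0.05 for unadjusted p-values. Intervals of 95% use 7.89 moderated degrees of freedom. Exact permutation tests, tables and promoter searches used Python 3.11.15, numpy 2.4.6, pandas 2.3.3 and scipy 1.17.1. As arrays hold no counts, the number of arrays limits the precision.

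The genes named are the 9 members with every probe, pathway genes called at FDR below 0.1, the 2 of each pathway list with the smallest p, the 2 genes nearest to each member, and markers called, and some genes named by this rule are not reported here. The brightest probe stands for a gene. The members, gene lists and tests were chosen with earlier results of these data known. Alternatives were a normexp background correction (offset 50), quantile and median scaling, the authors' table, no filter on dim probes, detection on all 8 arrays, robust estimation with a variance trend, array weights, a replicate block, the 5′ minus 3′ covariate, the brightest probe of each gene symbol, and 1 array left out in turn. The miRNA arrays and other assays of the study were not analysed here. The files pair probes with transcripts but give no exon, so exons were not analysed.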

Additional observations from a re-analysis of the deposited data

Results flagged for a closer look

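Among 52 groups of 4 rats examined for the 10 probes and the named pathway genes, 6 held a rat set apart from the other 3 by Dixon's test, which takes the gap to the nearest rat as a share of the range of the group. Chance sets apart about 1 group in 20, or 2.6 of 52. In control rats, replicate 2 was set apart for the dim probe of Irf1 (0.836), for Stat2 (0.852) and for Ptpn11 (0.845). In each of these 3 cases control replicate 2 was the highest control rat. In stressed rats, replicate 1 was set apart for Irf9 (0.890) and Isg15 (0.870), as the highest stressed rat in both, and replicate 2 was set apart for Jak1 (0.914), as the highest.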

How the results depend on the processing

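Over 20 fits, Irf3 and the bright probe of Irf1 kept their direction in all, though several of these fits leave the difference unchanged by design. Of the 9 genes, 0 were called at FDR below 0.1 with all rats (3.74% of all tested probes called). With no filter on dim probes 1 (Irf3) was called (9.92%), and 1 (Irf3) with a variance trend and robust estimation (5.47%). With array weights 4 were called (50.6%). Between 0 and 4 were called with 1 rat left out, with the 4 reached without control replicate 2 (42.4%). Of the 86 pathway genes, 1 was called with all rats (3.74% of all tested probes called), 0 with normexp background correction (0.908%), 4 with quantile normalization (5.29%), 2 with median scaling (5.35%), 31 with array weights (50.6%), 7 with the 5′ minus 3′ covariate (10.1%), and between 0 and 21 with 1 rat left out, with the 21 reached without control replicate 2 (42.4%). With replicate number as a block, 0 pathway genes and 0 of the 9 genes were called by limma. Same-numbered rats did not deviate together throughout (correlations of 0.0952, 0.12, -0.0869 and 0.305), so the numbers were not read as pairs. The block leaves each difference unchanged by design.

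Among the probes of the 9 genes, none of the differences that changed direction was called in its new direction. With median scaling the differences were -0.11 for the dim probe of Irf1, -0.087 for Irf7, -0.010 for Mx1, -0.041 for Mx2 and -0.025 for Isg15, and with quantile normalization they were -0.24 for the dim probe of Irf1, -0.027 for Irf7 and -0.013 for Irf9. With the 5′ minus 3′ covariate they were -0.32 for the dim probe of Irf1, -0.12 for Irf8, -0.10 for Mx1 and -0.16 for Mx2. With array weights they were -0.10 for Irf7, 0.027 for Stat2 and -0.090 for Isg15. With 1 rat left out, the difference ranged from -0.12 to 0.17 for the dim probe of Irf1, from -0.19 to 0.28 for Irf7, from -0.12 to 0.072 for Stat2 and from -0.029 to 0.20 for Isg15. With no change of direction it ranged from -0.16 to -0.057 for the bright probe of Irf1, from 0.25 to 0.60 for Irf8, from 0.067 to 0.21 for Irf9, from 0.051 to 0.20 for Mx1 and from 0.027 to 0.18 for Mx2. Among the pathway genes, Adar, named after its values were seen, did change direction and was called. Its difference was 0.51 with all rats (limma, adjusted p = 0.457). With the 5′ minus 3′ covariate it was -0.45 (limma, adjusted p = 0.0520), where 10.1% of all tested probes were called. The causes were not tested. Signal over background limits Irf8 and the dim probe of Irf1 most, and the number of arrays limits every value.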

Other observations

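The 2 pathway genes below were also named after their values were seen. Tlr3, which encodes a sensor of double-stranded RNA, split the rats regardless of group. Its log2 signal was -0.78, -1.94, -2.91 and -2.88 in the control rats and -3.03, -1.06, -0.87 and -2.97 in the stressed rats. A second probe gave the same order, at -1.27, -2.39, -3.25 and -3.22 in the control rats and -3.38, -1.45, -1.32 and -3.37 in the stressed rats. The log2 difference between the groups was 0.14 (limma, adjusted p = 0.915) and 0.15 (limma, adjusted p = 0.907).

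Ifit1, a response gene of type I interferon, was well above background on 2 of the 4 stressed arrays and on 0 of the 4 control arrays, and was therefore not tested. Its log2 signal was -8.42, -9.09, -9.45 and -7.71 in the control rats and -6.85, -5.89, -7.04 and -7.34 in the stressed rats. The lowest stressed rat was higher than the highest control rat, mostly at signals that were not well above background. Such a separation was common among probes this dim: of 6679 probes that were not tested, 32.5% were higher in all stressed rats than in all control rats, and 0.73% were lower.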
